A study of Mus musculus with 26 samples.

Results

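The genes of the extracellular matrix, of the integrins that bind it and of the proteases that cut it were examined in cultured mouse oligodendrocyte progenitor cells (OPCs) and in the oligodendrocytes (OLs) differentiated from them. Members were the genes whose symbols matched a pattern of letters, which used no measured value, for collagen and laminin chains, integrin subunits, ADAM, ADAMTS and MMP proteases, TIMP inhibitors, tenascins, lecticans, fibronectin, the SPARC family and lysyl oxidases. This rule caught 59 genes, each with 1 transcript, out of 10104 transcripts listed for either cell type. Of these, 32 were listed for both cell types, 12 for OPCs alone and 15 for OLs alone. One symbol fitted the rule by its letters only. Col4a3bp encodes the ceramide transfer protein and is no matrix gene, and it was kept as a member in all counts.

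Both cell types were of strain 129S/SvEv. OPCs came from epiblast stem cells and were grown with bFGF and PDGFA, and OLs were obtained from OPCs with noggin, IGF-1, cyclic AMP, NT3 and T3 (thyroid hormone). Dishes for both carried poly-L-ornithine and laminin, so the cells of both groups lay on an added matrix protein. Cells took up 5-ethynyluridine (5-EU) for 24 h, in OLs from 40 h of differentiation on, and labelled RNA was then collected at 0, 1, 2, 4 and 6 h after uridine had replaced it, in 3 OPC and 2 OL replicates. The study asked how the stability of mRNAs changes when OPCs become OLs.

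Matrix proteins form the scaffold around cells. Integrins are pairs of an alpha and a beta subunit that span the membrane and tie this scaffold to the cytoskeleton. Lecticans (versican, brevican, neurocan) are chondroitin sulfate proteoglycans that, with tenascins, make up much of the matrix of the brain, while collagens and laminins are typical of basement membranes and connective tissue. ADAM proteases release the outer parts of membrane proteins, ADAMTS proteases and MMPs cut matrix proteins, and TIMPs block metalloproteases. OPCs use integrins to sense laminin and fibronectin, and this contact is known to bear on their survival and differentiation.

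Markers were checked against the labels. Summed over 9 myelin genes, labelled RNA at 0 h was 57.5, 39.2 and 47.7 FPKM (fragments per length of transcript and sequencing depth, with a further spike-in scale whose use at 0 h was not settled) in the 3 OPC libraries, against 6385 and 2940 FPKM in the 2 OL libraries (replicates are given in the order of their numbers throughout), with 3 and 9 of the genes listed. All 6 OPC markers were listed for both cell types, at 1530 to 1691 FPKM in sum in OPCs and at 1171 and 986 FPKM in OLs. They did not move together. Olig1 (mean 1047 to 571 FPKM) and Olig2 (323 to 204 FPKM), which carry most of the sum, were called lower in OLs, Pdgfra (17.1 to 55.4 FPKM, log2 difference 1.70, adjusted p = 0.00591 in limma) and Sox10 (13.8 to 100 FPKM, 3.07, adjusted p = 0.00291 in limma) higher, and Cspg4 and Ptprz1 were not called. The rise of Pdgfra, the PDGFA receptor of OPCs, goes against its use as a marker here. Astrocyte markers summed to 379 to 461 FPKM in OPCs (3 of 6 listed) and to 344 and 481 FPKM in OLs (5 of 6 listed), with Gfap and Aldh1l1 listed for OLs alone, Slc1a2 higher in OLs (28.3 to 86.5 FPKM) and Slc1a3 lower (201 to 125 FPKM). Of 5 neuronal markers, Tubb3 was listed for both (16 and 24.6 FPKM) and Syt1 for OLs alone (2.22 FPKM). None of the microglial, endothelial, mural, fibroblast or epiblast markers was listed for either cell type, among them the fibroblast collagens Col1a1, Col1a2, Col3a1 and Col6a1. Whether the astrocyte, neuronal and remaining OPC signal bears on any result was not tested.

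Sequences of 2 sets of members are shown first, because members at the longest half-life the data can give and members under it are contrasted in the results. A half-life is the time in which labelled RNA falls to 50% of its level, and it was set to a ceiling of 6 h where the fit exceeded the chase. Of the 28 members with a half-life in all 5 replicates, 7 were at the ceiling in all 5 (Adam23, Bcan, Itgav, Itgb1, Ncan, Sparc, Timp2) and 7 were under it in all 5 (Adamts1, Adamts4, Col4a3bp, Itga9, Mmp16, Mmp17, Timp3). In their 3′ untranslated regions (3′ UTRs) the letters ATTTA, the core of AU-rich elements, and TATTTAT, which contains it, were counted on the RNA strand with overlaps allowed. The first TATTTAT after the stop codon is in capitals, with the bases around it, and positions are on GRCm38. The 5 members under the ceiling that hold it were
Adamts1 (chr16:85794766-85794794, minus strand): aacaattcatcTATTTATaaaatgtacat
Adamts4 (chr1:171259471-171259499, plus strand): ggccctagttgTATTTATttggtatttat
Itga9 (chr9:118897588-118897616, plus strand): gagcaaagcaaTATTTATggatgcaacat
Mmp16 (chr4:18118574-18118602, plus strand): ccttgaatttaTATTTATactcaacatag
Timp3 (chr10:86347543-86347571, plus strand): cagattatgggTATTTATcctctattagt
and the 2 members at the ceiling that hold it were
Itgav (chr2:83804006-83804034, plus strand): agttaggttttTATTTATgtgtagtctgc
Itgb1 (chr8:128733153-128733181, plus strand): ttaactgaagtTATTTATtaaaataaaaa

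The window of Adamts4 held a further match in lower case. TATTTAT was found in 5 of the 7 members under the ceiling and in 2 of the 7 at it, against 30.1% of the 3′ UTRs of all 9968 transcripts with a usable coding sequence and 37.3% of the members (22 of 59). The count follows length, since 3′ UTRs of 4/5 to 5/4 the length of Timp3, Itga9 and Itgav held it in 58.7%, 58.6% and 58.3% of cases. For Adamts1 and Adamts4, which each held 3 matches in shorter 3′ UTRs of 1574 and 1459 bases, the share at similar length was 36.5% and 34.3%. Itgav held 3 matches and 19 ATTTA at the ceiling, while Mmp17 and Col4a3bp held no TATTTAT under it, so the letters alone did not separate the sets. Ncan had neither motif in 3235 bases, where 96.8% of 3′ UTRs of similar length held ATTTA, and Timp2 had neither in 2630 bases (94.9%). These are descriptions of sets that were formed by half-life, with no test.

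The coding sequences of the members were long, with a median of 2766 bases against 1398 over all transcripts, and so were their 3′ UTRs, with 1683 against 1115 bases. Synonymous codon use was near that of all transcripts. UUU made up a median of 40.8% of Phe codons (44.4% over all), AAA 37.2% of Lys codons (37.3%), and 59.7% of the wobble positions of codons were G or C (60.6%). Single members spread widely around these medians. AAA made up 15.8% of the Lys codons of Sparc and 72.1% of those of Col4a3, and UUU ranged from 20.0% of Phe codons in Adam15 to 77.3% in Col4a3bp.

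Labelled RNA at 0 h, the RNA made during 24 h of labelling and still present, was compared first. As these are bulk cultures, fewer cells with an mRNA and less of it per cell cannot be told apart. Members took 0.335% to 0.354% of the summed FPKM in the 3 OPC libraries and 0.447% and 0.451% in the 2 OL libraries. In limma on log2(FPKM + 1), with p-values adjusted by Benjamini-Hochberg over all 8177 transcripts listed for both cell types and a threshold of 0.05, 11 of 32 members were higher in OLs, against 14.1% of all transcripts, and 4 were lower, against 17.5%. The median log2 difference was 0.08 over the members and -0.01 over all transcripts. Without OL replicate 1 the limma calls dropped from 15 to 8, and without OL replicate 2 to 11, which leaves 1 OL library whose spread is taken from the other groups. The shares of all transcripts dropped too, to 5.91% higher and 8.56% lower without OL replicate 1 and to 7.03% and 10.9% without OL replicate 2. Vcan, Mmp16, Adam23, Adamts1 and Timp2 lost their call without either OL replicate, Adamts1 and Timp2 also without OPC replicate 3, and Ncan without OL replicate 1.

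**Figure D1:**
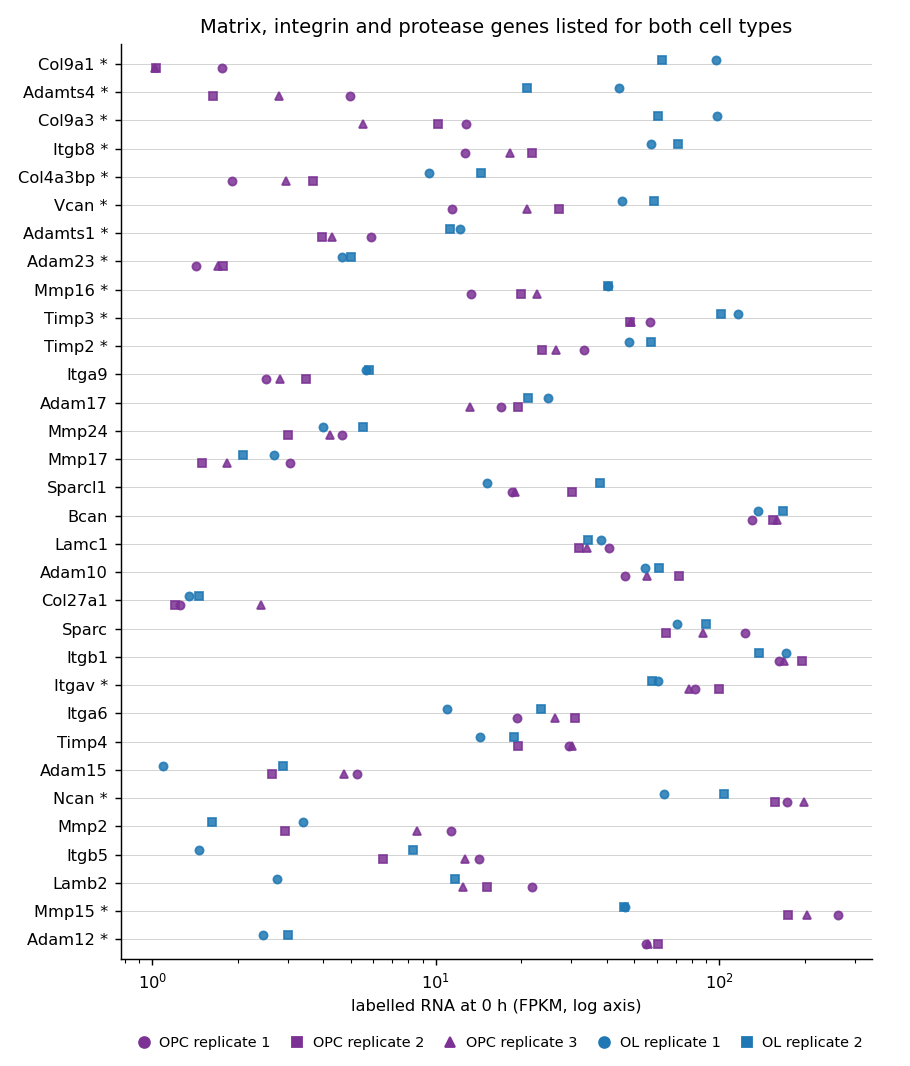
Labelled RNA at 0 h (FPKM, log axis) of the 32 members listed for both cell types, 1 point per replicate, ordered by the log2 difference between OLs and OPCs. Stars mark members called in limma. Col9a1 (OPC 1.02 to 1.76 FPKM, OL 62.9 and 97.2 FPKM) and Adam12 (OPC 55.1 to 60.7 FPKM, OL 2.45 and 3.02 FPKM) stand at the ends, with Bcan, Lamc1 and Itgb1 overlapping in the middle.

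Among the collagen chains, the 2 chains of collagen IX that were listed, Col9a1 and Col9a3, rose in OLs. Col9a1 (chr1:24177610-24252684), a chain of collagen IX, which lacks long fibrils of its own and decorates those of other collagens in cartilage, stood at 1.76, 1.03 and 1.02 FPKM in OPCs and at 97.2 and 62.9 FPKM in OLs. Its level was thus just above the lower limit of the tables, 1 FPKM, in all OPC replicates, and the log2 difference was 5.14 ± 0.31 (SE, adjusted p = 1.78e-05, n = 3 and 2). Col9a3, another chain of the same collagen, went from 12.8, 10.2 and 5.51 FPKM to 97.9 and 60.6 FPKM, a log2 difference of 2.96 ± 0.35 (adjusted p = 0.000285). In both genes the groups lay far apart and OL replicate 1, which also had the higher sum of myelin genes, was the higher OL library. Col27a1, a fibrillar collagen, was low in both cell types, at 1.2 to 2.42 FPKM in OPCs and at 1.35 and 1.46 FPKM in OLs (log2 difference -0.10 ± 0.30, adjusted p = 0.834).

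The other collagens were split between the cell types. Col4a1 and Col4a2, the common chains of basement membrane collagen IV, and the fibrillar chains Col5a1 and Col5a2 were listed for OPCs alone, at means of 3.29, 1.95, 2.74 and 2.59 FPKM. Col20a1, at 56.3 and 28.8 FPKM, the fibrillar chains Col11a1 and Col11a2, at means of 9.69 and 8.15 FPKM, Col16a1, at 5.18 and 1.10 FPKM, and Col4a3, at a mean of 1.70 FPKM, were listed for OLs alone. A gene was listed for a cell type at 1 FPKM or more at 0 h and with no 0 at 1 and 2 h, so a member of a single table may lie just under this limit in the other or have a 0 there, and no fold is given for it. Summed over all chains listed, collagen mRNA was at 16.9 to 28.0 FPKM in OPCs and at 279 and 173 FPKM in OLs. The laminin chains summed to 71.2 to 96.1 FPKM in OPCs and to 41.0 and 46.0 FPKM in OLs, and neither chain listed for both cell types was called.

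Laminins are trimers of an alpha, a beta and a gamma chain. Lama5 was listed for OPCs alone, at 33.3, 24.1 and 34.1 FPKM. Lamb2 was at 21.9, 15.2 and 12.5 FPKM in OPCs and at 2.75 and 11.7 FPKM in OLs, with the OL libraries far apart (log2 difference -1.31 ± 0.48, adjusted p = 0.0626). It was called lower with equal library medians, without OL replicate 2 and with the replicate number as a block. Lamc1, the gamma chain of most laminins, was at 31.9 to 40.9 FPKM in OPCs and at 38.3 and 34.3 FPKM in OLs, which overlap. Fn1, fibronectin, was listed for OPCs alone, at 3.72, 1.51 and 1.70 FPKM. No laminin or fibronectin transcript was called higher in OLs.

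The matrix proteoglycans of the brain moved in opposite directions. Vcan, versican, was at 11.4, 27.2 and 20.9 FPKM in OPCs and at 45.2 and 58.6 FPKM in OLs, a log2 difference of 1.41 ± 0.33 (adjusted p = 0.011). Ncan, neurocan, fell from 173, 157 and 199 FPKM to 63.8 and 104 FPKM, a log2 difference of -1.10 ± 0.23 (adjusted p = 0.00667). Bcan, brevican, stayed among the most abundant members in both, at 130, 155 and 159 FPKM and at 137 and 168 FPKM (log2 difference 0.04 ± 0.19, adjusted p = 0.891). Tnr (chr1:159737510-159924397), tenascin-R, a matrix glycoprotein made by oligodendrocytes, was listed for OLs alone, at 125 and 96.5 FPKM, with a mean at percentile 94.1 of the OL table. Tnc was listed for neither cell type.

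**Figure D2:**
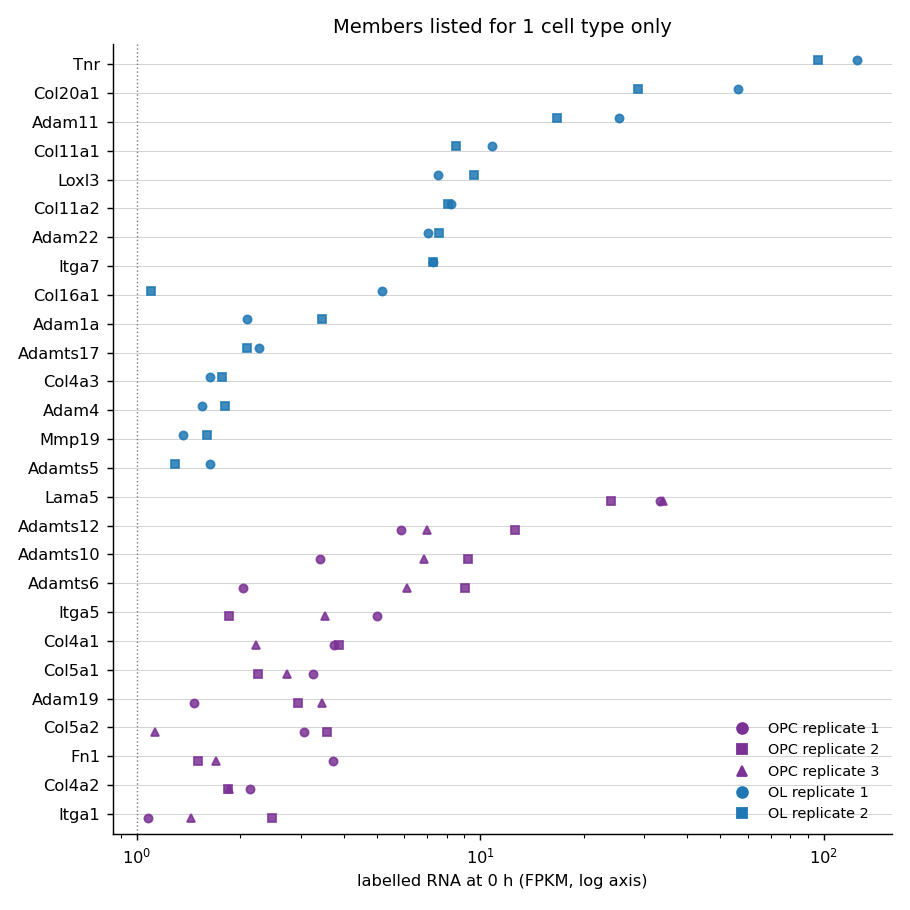
Labelled RNA at 0 h (FPKM, log axis) of the 12 members listed for OPCs alone and the 15 listed for OLs alone, 1 point per replicate. The dotted line is the authors' limit of 1 FPKM. Tnr, Col20a1 and Adam11 lead the OL members and Lama5 the OPC members, while most others lie under 10 FPKM.

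Among the integrins, the beta chains differed. Itgb8, which with the alpha V chain activates latent TGF-beta, rose from 12.7, 21.9 and 18.2 FPKM in OPCs to 57.3 and 71.5 FPKM in OLs (log2 difference 1.84 ± 0.26, adjusted p = 0.000816). Itgb1, the partner of most alpha chains, was at 162, 195 and 169 FPKM and at 172 and 138 FPKM (log2 difference -0.18 ± 0.19, adjusted p = 0.479). Itgb5 was at 14.2, 6.49 and 12.7 FPKM in OPCs and at 1.46 and 8.30 FPKM in OLs, where the groups overlap (adjusted p = 0.0972). Itgav, alpha V, was at 81.9, 100 and 78.2 FPKM and fell to 60.5 and 57.8 FPKM (log2 difference -0.54 ± 0.18, adjusted p = 0.0494), a limma call that held in 1 of 9 alternatives. Itga6, the alpha chain of the laminin receptor alpha 6 beta 1, was at 19.3, 30.9 and 26.2 FPKM and at 10.9 and 23.4 FPKM, with overlap (adjusted p = 0.189). Itga9 was at 2.52 to 3.49 FPKM and at 5.68 and 5.83 FPKM without a call (adjusted p = 0.0586). The collagen receptor chain Itga1 and the fibronectin receptor chain Itga5 were listed for OPCs alone, at means of 1.67 and 3.47 FPKM, and the laminin receptor chain Itga7 for OLs alone, at 7.28 FPKM in both replicates.

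Membrane proteases of the ADAM family held the largest fall. Adam12 (chr7:133883199-134225097) was at 55.1, 60.7 and 56.1 FPKM in OPCs and at 2.45 and 3.02 FPKM in OLs, a log2 difference of -3.97 ± 0.23 (adjusted p = 1.54e-05), and the call held in all 9 alternatives of limma. Adam10 and Adam17, the major sheddases of membrane proteins, were not called. Adam10 was at 46.4 to 71.9 FPKM and at 54.4 and 61.0 FPKM, and Adam17 at 13.2 to 19.4 FPKM and at 24.9 and 21.1 FPKM (adjusted p = 0.968 and 0.181). Adam23, a member without protease activity that binds LGI proteins, rose from 1.42, 1.78 and 1.71 FPKM to 4.68 and 5.02 FPKM (log2 difference 1.15 ± 0.27, adjusted p = 0.0114). Its relatives Adam22 and Adam11, also without protease activity, were listed for OLs alone, at means of 7.31 and 21.0 FPKM, as were Adam1a and Adam4, at 2.78 and 1.68 FPKM. Adam19 was listed for OPCs alone, at a mean of 2.63 FPKM, and Adam15 was at 2.64 to 5.25 FPKM and at 1.09 and 2.89 FPKM (adjusted p = 0.118).

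Both secreted ADAMTS proteases listed for both cell types rose. Adamts4 (chr1:171250421-171260637), a protease that cuts lecticans, went from 4.98, 1.64 and 2.80 FPKM in OPCs to 44.4 and 21.0 FPKM in OLs (log2 difference 3.01 ± 0.42, adjusted p = 0.00082). Adamts1, which cuts versican, went from 5.90, 3.97 and 4.29 FPKM to 12.2 and 11.2 FPKM (1.17 ± 0.29, adjusted p = 0.0138). Adamts6, Adamts10 and Adamts12 were listed for OPCs alone, at means of 5.73, 6.49 and 8.49 FPKM, and Adamts5 and Adamts17 for OLs alone, at means of 1.46 and 2.18 FPKM. Thus 5 ADAMTS genes were listed for OPCs and 4 for OLs.

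MMPs of the membrane type moved both ways. Mmp15 (MT2-MMP) fell from 261, 174 and 204 FPKM, the highest mean of any member in OPCs, to 46.4 and 46.0 FPKM in OLs (log2 difference -2.16 ± 0.20, adjusted p = 8.56e-05). Mmp16 (MT3-MMP) rose from 13.3, 19.9 and 22.8 FPKM to 40.3 FPKM in both OL replicates (1.10 ± 0.26, adjusted p = 0.0108). Mmp17 and Mmp24, of the same type, were at 1.49 to 5.53 FPKM in all 5 libraries and were not called. Mmp2, the gelatinase, was at 11.3, 2.93 and 8.56 FPKM and at 3.39 and 1.62 FPKM (adjusted p = 0.0865), and Mmp19 was listed for OLs alone, at a mean of 1.48 FPKM. Neither Mmp9 nor Mmp14 was listed.

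TIMP inhibitors were abundant in both cell types. Timp3 (chr10:86300372-86349506), the inhibitor that binds to the matrix and also blocks ADAM and ADAMTS proteases, rose from 56.9, 48.5 and 48.6 FPKM to 116 and 101 FPKM (log2 difference 1.06 ± 0.18, adjusted p = 0.00226), and Timp2 from 33.2, 23.7 and 26.5 FPKM to 48.0 and 57.2 FPKM (0.90 ± 0.22, adjusted p = 0.0121). Timp4 was at 29.5, 19.5 and 30.3 FPKM and at 14.3 and 18.8 FPKM, which do not overlap but were not called (-0.63 ± 0.27, adjusted p = 0.0989). Without OPC replicate 2, Timp4, Mmp2 and Itgb5 were all called lower in OLs, as was Itgb5 without OL replicate 2. Timp1 was not listed. Sparc, a collagen-binding matricellular protein, and its relative Sparcl1 overlapped between the cell types, at 64.8 to 123 FPKM against 70.9 and 89.7 FPKM for Sparc and 18.6 to 30.1 FPKM against 15.1 and 37.9 FPKM for Sparcl1. Loxl3, which crosslinks collagen and elastin, was listed for OLs alone, at 7.55 and 9.57 FPKM, and Col4a3bp rose from 1.91 to 3.68 FPKM to 9.48 and 14.4 FPKM (1.75 ± 0.33, adjusted p = 0.00385).

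Genes around these members, on lists written with earlier results of these data known, were tested in the same limma fit. Over all transcripts, 14.1% were higher and 17.5% lower in OLs, and each list is to be read against these shares. Of 15 basement membrane and surface proteoglycan genes, 7 were lower and 1 was higher in OLs, among them the syndecan Sdc3 (mean 120 to 28.6 FPKM, log2 difference -2.04), the hyaluronan receptor Cd44 (20.0 to 5.28 FPKM, -1.88), perlecan Hspg2 (9.81 to 2.71 FPKM, -1.54), Sdc1 (27.1 to 11 FPKM, -1.23) and Cspg5 (107 to 50.9 FPKM, -1.06), with Sdc2 the one that rose (15.8 to 51.0 FPKM, 1.42). The median of this list was -0.65. Of 13 collagen processing genes, 4 were lower, namely the collagen chaperone Serpinh1 (233 to 60.5 FPKM, -1.96), Crtap (30.7 to 7.33 FPKM, -1.88), Colgalt1 (79.8 to 26.8 FPKM, -1.52) and P4hb (285 to 154 FPKM, -0.87), and 1 was higher, the prolyl hydroxylase subunit P4ha1 (16.9 to 49.0 FPKM, 1.48). The median was -0.38, opposite in sign to the collagen IX chains. Of 5 other matrix genes tested, 1 was lower, Spon1 (114 to 46.2 FPKM, -1.32), with a median of -0.71.

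Of 24 integrin adhesion genes, 7 were higher and 3 lower, with a median of 0.24, against the same 14.1% and 17.5% of all transcripts. The focal adhesion proteins Parvb (5.35 to 112 FPKM, log2 difference 4.07), Tns3 (13.7 to 125 FPKM, 3.09) and Bcar1 (12.5 to 52.9 FPKM, 2.02) and Fyn (117 to 246 FPKM, 1.05), a tyrosine kinase, and Ilk, integrin-linked kinase (63.6 to 115 FPKM, 0.84) were among those that rose, and Lims1 (70.7 to 38.5 FPKM, -0.86), a partner of Ilk, was among those that fell. Of 17 chondroitin sulfate and hyaluronan synthesis genes, 4 were higher and 4 lower, with a median of 0.04. The sulfotransferases Chst3 (1.90 to 13.8 FPKM, 2.35), Ust (9.64 to 46.7 FPKM, 2.1) and Chst11 (11 to 34.2 FPKM, 1.56) rose, while Chst7 (77.0 to 4.62 FPKM, -3.80), the xylosyltransferase Xylt1 (65.5 to 20.1 FPKM, -1.64) and the chondroitin synthase Chsy1 (42.4 to 14.6 FPKM, -1.50) fell. Of 12 protease regulators, 4 were higher and 4 lower (median 0.17). Tspan5, a tetraspanin partner of ADAM10, fell from 47.6 to 9.69 FPKM (-2.18), and its relatives Tspan17 (5.82 to 25.2 FPKM, 1.97) and Tspan15 (13.6 to 39.8 FPKM, 1.49) rose. The protease inhibitor Serpine2 fell from 1275 to 371 FPKM (-1.77), Cst3, cystatin C, rose from 360 to 1448 FPKM (1.96), and the proprotein convertase Pcsk6 fell from 15.5 to 5.45 FPKM (-1.43).

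How the labelled RNA of the members behaved over the chase was described by its level in percent of 0 h and tested as a slope, in log2(FPKM + 1) per h, with limma. The median slope of the members was -0.12 in OPCs, against -0.38 over all transcripts, and -0.07 in OLs, against -0.20. In OPCs, 22 of 44 members fell, where 81.7% of all transcripts did, and 6 rose, where 4.92% did. In OLs, 17 of 47 members fell (65.1% of all transcripts) and 4 rose (1.03%). The later time points rest on 1 spike-in factor per library that all its transcripts share. The members' median level in percent of 0 h was 84.0%, 81.6%, 91.3% and 54.3% in OPCs after 1, 2, 4 and 6 h and 77.2%, 75.1%, 85% and 62.4% in OLs. With each time point set to the median of its 0 h library, the median slope over all transcripts moved from -0.38 to 0.06 in OPCs and from -0.20 to 0.03 in OLs, and 39 members rose and 1 fell in OPCs (38.8% and 13.1% of all transcripts) and 25 rose and 1 fell in OLs (27.6% and 10% of all). The falls are thus relative to the spike-in, and relative to the median transcript most members gained.

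Among the members that rose were the matrix genes Sparc, Sparcl1 and Bcan. Sparc (chr11:55394500-55420080) stood at 155%, 234% and 210% of its 0 h level after 6 h in OPCs and at 248% and 191% in OLs, above 100% in all 5, with slopes of 0.19 ± 0.04 in OPCs (SE, adjusted p = 4.87e-05) and 0.22 ± 0.05 in OLs (adjusted p = 0.000646). Sparcl1 was at 238%, 308% and 326% in OPCs (slope 0.28 ± 0.06, adjusted p = 6.14e-05) and at 169% and 227% in OLs, where it was not called (0.16 ± 0.10, adjusted p = 0.176). With the replicate number as a block, Sparcl1 was called as rising in OLs too. Bcan was at 156%, 179% and 201% in OPCs (0.18 ± 0.04, adjusted p = 6.86e-05) and at 156% and 89.3% in OLs, on both sides of 100% (adjusted p = 0.116). Ncan (0.10 ± 0.03), Itgb1 (0.10 ± 0.03) and Fn1 (0.18 ± 0.07) also rose in OPCs, and Fn1 held in 2 of 7 alternatives. Ncan was lost without OPC replicate 2, without OPC replicate 3 and without the 6 h libraries, and Itgb1 without OPC replicate 3. In OLs, Adam15, Col11a2 and Col9a3 rose besides Sparc (slopes 0.22, 0.19 and 0.16), but without OL replicate 1 none of these 3 was called. Decay alone gives no level above 100%, and the cause of these levels was not tested.

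**Figure D3:**
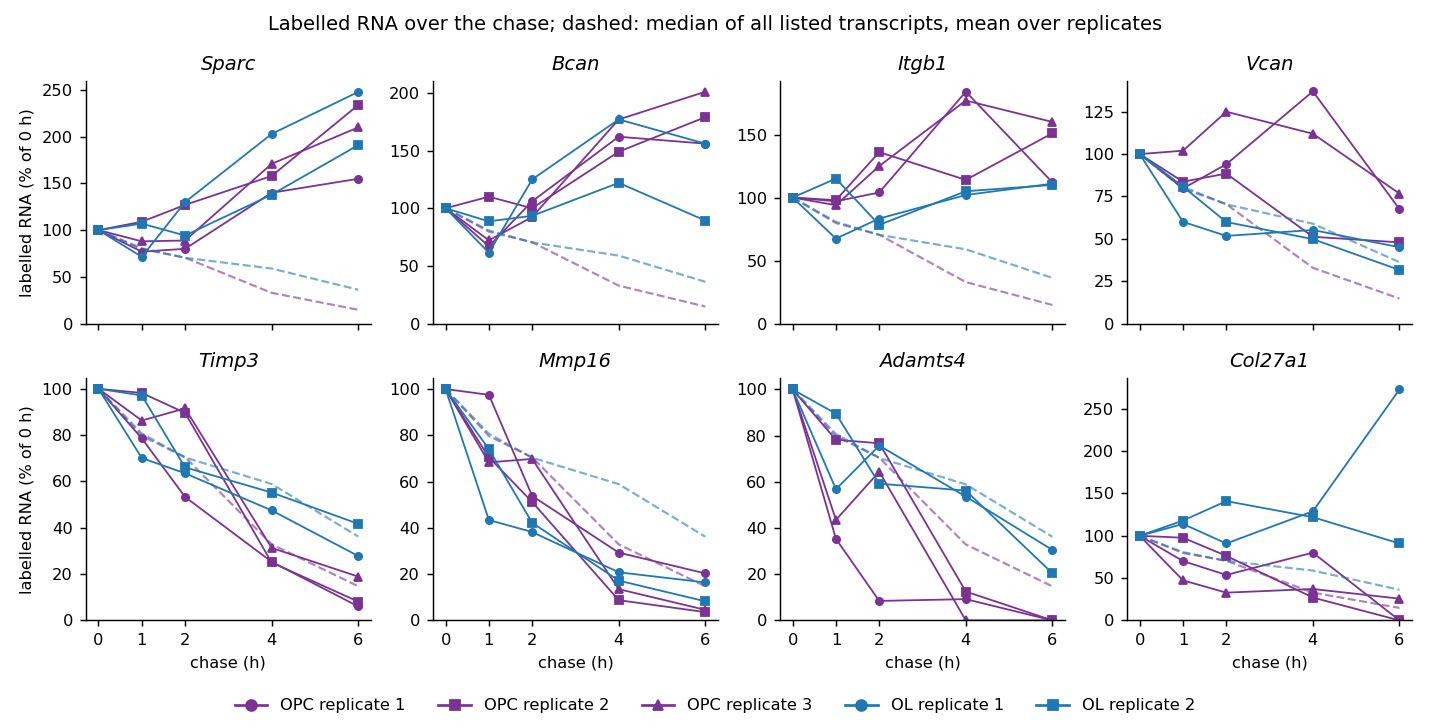
Labelled RNA in percent of the 0 h level (y axis, linear, each panel with its own range) over the chase in h (x axis) for 8 members, 1 line per replicate. Dashed lines are the median of the 8177 transcripts listed for both cell types, averaged over the replicates of a cell type. Sparc ends above 150% in all 5 replicates, Mmp16 ends at 3.58% to 20.3%, and Col27a1 separates the cell types at 6 h.

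Mmp16 and Timp3 were among the members that fell in both cell types, as was Col4a3bp, no matrix gene (OL slope -0.30 ± 0.07, adjusted p = 0.00112 in limma). With each time point set to the 0 h median, none of these was called as falling in both. Mmp16 was then called in OLs alone (slope -0.23, and -0.10 in OPCs) and Timp3 in OPCs alone (-0.10, and -0.01 in OLs). The order of the slopes depends on the pseudocount, which flattens low genes. With 0.1 in place of 1 FPKM, the OPC slopes of the low genes Adamts6 (-0.86), Adamts4 (-0.82) and Adam19 (-0.75) were steeper than that of Mmp16 (-0.66). Mmp16 was left at 20.3%, 3.58% and 4.55% after 6 h in OPCs and at 16.4% and 8.25% in OLs, with slopes of -0.54 ± 0.06 (adjusted p = 3.34e-08) and -0.47 ± 0.05 (adjusted p = 5.05e-06). Timp3 was left at 6.04%, 8.10% and 18.9% in OPCs and at 27.8% and 41.7% in OLs, so the cell types did not overlap at 6 h. The median over the transcripts listed for both cell types did not overlap either, at 14.8%, 11.3% and 18.1% in OPCs and 33.0% and 39.4% in OLs. Adamts4 and Col9a1 were listed at 0 after 6 h in all 3 OPC replicates, from 0 h levels of at most 4.98 FPKM, while they kept 30.5% and 20.4% and 67.8% and 84.0% in the OL replicates. No member was listed at 0 at any time point in OLs, and 10 of 44 were at 0 at 6 h in at least 1 OPC library, 9, 7 and 3 per replicate. Over all transcripts, 15.7%, 21.6% and 16.4% were at 0 in the OPC libraries at 6 h and 4.08% and 0.79% in the OL libraries. Adamts6 (slope -0.42 ± 0.07) and Adamts1 (-0.40 ± 0.07) fell in OPCs as well, and Loxl3 (-0.27 ± 0.06) and Itga9 (-0.28 ± 0.05) in OLs.

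Whether the chase differed between the cell types was tested as the difference of slopes. Of 32 members, 3 had a higher slope in OLs, termed less steep here (Timp3, Col27a1, Mmp24), against 27.5% of all transcripts. A lower slope in OLs, termed steeper, was found in 0, against 0.232%. Of the 3, Timp3 alone was called as falling in OLs, while the OL slopes of Col27a1 (0.07) and Mmp24 (-0.03) were not called. At an unadjusted p under 0.05, limma gave 6 members, against 40.5% of all transcripts. The median difference was 0.02 over the members and 0.14 over all transcripts. Timp3 had slopes of -0.61, -0.60 and -0.41 in OPCs and of -0.28 and -0.21 in OLs, which differ by 0.29 ± 0.06 (adjusted p = 0.00172). For Col27a1 the difference was 0.23 ± 0.06 (adjusted p = 0.00728), with slopes of -0.15, -0.20 and -0.14 against 0.15 and -0.02, at levels near 1 FPKM. For Mmp24 it was 0.20 ± 0.08 (adjusted p = 0.0494), with slopes of -0.32, -0.25 and -0.13 against 0.01 and -0.07. Without OL replicate 1, Timp3 alone was called, and without OL replicate 2, Col27a1 alone, while the share of all transcripts called less steep dropped to 8.33% and 10.3%. With time points set to the 0 h median, 0 members were less steep and 15 were steeper in OLs (3.16% and 19.3% of all transcripts), as the median difference over all transcripts moved from 0.14 to -0.07.

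Half-lives, in h, were compared next. The median half-life in OPCs was 4.68, 6 and 6 h over the 28 members and 2.35, 2.08 and 2.83 h over all 8112 transcripts with a value in all 5 replicates. In OLs it was 6 and 5.67 h over the members and 4.54 and 4.44 h over all. At the ceiling lay 12, 16 and 18 of the 28 members in the OPC replicates (42.9%, 57.1% and 64.3%) and 17 and 13 in the OL replicates (60.7% and 46.4%), where all transcripts had 24.5%, 25.3% and 31.6% and then 42.3% and 38.8%. The members' share in OLs lay within the range of the OPC replicates, while that of all transcripts lay above it. The median log2 difference in half-life between OLs and OPCs was 0.00 over the members and 0.37 over all transcripts. A member at the ceiling in both cell types has a difference of 0.00 whatever its decay, so the members' median does not show that their half-lives were alike. Restricted to transcripts with any half-life below the ceiling in each cell type, the median was -0.01 over 12 members and 0.56 over all 5403 transcripts left. Other values of these transcripts may lie at the ceiling, and the restriction uses the compared half-lives themselves, so nothing is read from this contrast.

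In limma on log2 half-life, 1 of 28 members was longer in OLs (3.39% of all transcripts) and 0 were shorter (0.148%), and 8 members had an unadjusted p under 0.05, against 23.0% of all transcripts. The member was Col27a1 (chr4:63215435-63334991), with 2.23, 2.12 and 2.80 h in OPCs and the ceiling of 6 h in both OL replicates, a log2 difference of 1.34 ± 0.15 (adjusted p = 0.0474). Both OL values are cut off at 6 h, so this difference is a lower bound for a fit without a ceiling, and its SE holds no spread between OL replicates. Its 0 h level was at most 2.42 FPKM. With replicates centred on their median the log2 difference was 0.44, and the call held in 2 of 11 alternatives. It was lost without OPC replicate 1, without OPC replicate 2 and without either OL replicate. Without OPC replicate 3, Col9a1 was called longer beside it. With 1 OL replicate left, Adam12 (without replicate 1) and Adam10 and Adam12 (without replicate 2) passed as shorter, against 0.604% and 1.13% of all transcripts, but their OPC half-lives all lie at the ceiling and have no spread, so nothing is read from these calls. With all libraries rescaled to 1 mean decay curve, which moved the median over all transcripts from 0.37 to 0.00, limma called 0 members longer and 5 shorter in OLs (Adam10, Adam17, Itgb8, Timp4, Vcan), against 1.1% and 3.11% of all transcripts.

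Since few members were called, those whose OL half-lives both lay on one side of all 3 OPC half-lives are given as a description. Both lay above in 7 of 28 members, against 35.9% of all transcripts, and both below in 4, against 2.01%. The ceiling bounds these shares, since a transcript can lie above only with all 3 OPC half-lives under it, as in 10 of 28 members and 62.7% of all transcripts, and below only with both OL half-lives under it, as in 11 members and 50.5% of all. The members' counts are therefore not compared with the shares of all transcripts. Longer in both OL replicates were Adamts4 (0.665, 1.96 and 0.832 h in OPCs, 4.44 and 2.64 h in OLs), Adamts1 (1.21, 1.96 and 1.96 h, then 3.18 and 5.96 h), Mmp24 (1.86, 2.28 and 2.79 h, then 6 and 5.14 h), Col9a1 (1.96, 1.96 and 5.92 h, then 6 and 6 h), Timp3 (2.02, 2.00 and 2.50 h, then 3.25 and 4.67 h), Itga9 (1.67, 1.96 and 2.02 h, then 2.89 and 2.32 h) and Col27a1. None of them but Col27a1 passed the test, with adjusted p from 0.0822 for Mmp24 to 0.457 for Col9a1 in limma. Adamts4, Adamts1, Col9a1 and Timp3 were also higher in OLs at 0 h.

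Shorter in both OL replicates were Adam12 (6 h in all 3 OPC replicates, 4.32 and 2.18 h in OLs), Vcan (6, 5.65 and 6 h, then 4.66 and 3.61 h), Mmp16 (2.26, 1.96 and 1.82 h, then 1.44 and 1.61 h) and Adam10 (6 h in all 3, then 4.41 and 5.09 h). The log2 differences were -0.97 ± 0.34, -0.52 ± 0.13, -0.40 ± 0.12 and -0.34 ± 0.07, and the adjusted p in limma was 0.231, 0.145, 0.192 and 0.112. Vcan and Mmp16 were higher in OLs at 0 h, while their OL half-lives lay below those in OPCs. For Mmp16 the slopes did not show this, at -0.54 in OPCs and -0.47 in OLs (difference 0.08, adjusted p = 0.505 in limma), and the levels at 6 h overlapped. For Vcan the slope difference was -0.11 (adjusted p = 0.333 in limma). Adam12 was lower in OLs by both measures, though its slopes over the chase, -0.15 in OPCs and -0.18 in OLs, did not pass the test of their difference (adjusted p = 0.739), and its OL levels of 2.45 and 3.02 FPKM at 0 h were near the lower limit.

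**Figure D4:**
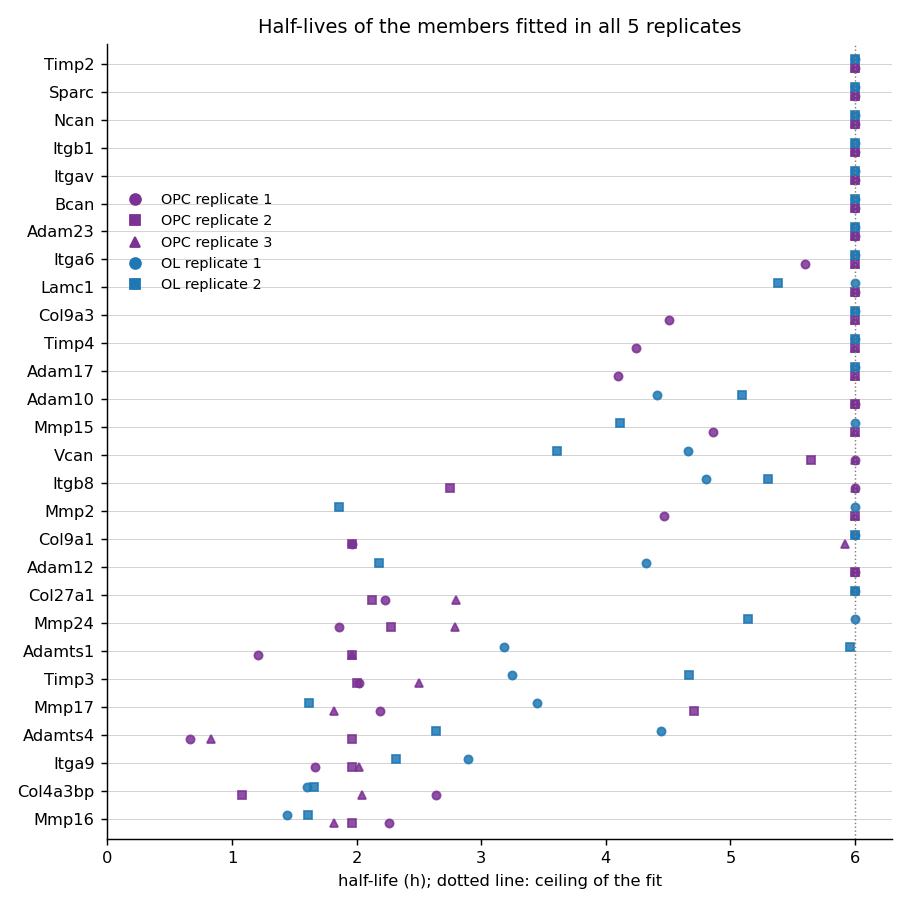
Half-life (h) of the 28 members with a value in all 5 replicates, 1 point per replicate, ordered by the sum of the OPC and OL means. The dotted line is the ceiling of 6 h. At the top, 7 members have all 5 points at the ceiling, and at the bottom Mmp16, Col4a3bp and Itga9 stay under 3 h in all replicates.

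As the median half-life of all transcripts was higher in OLs, members were also ranked within each replicate, as the percent of the 8112 transcripts at or below their half-life. The OL ranks both lay above all OPC ranks in 3 members (15.3% of all transcripts), Col27a1, Mmp24 and Col9a1, and below in 5 (13.3%), Adam10, Adam12, Itgb8, Mmp16 and Vcan. A half-life at the ceiling has rank 100 and cannot rank higher, so these counts are not compared with the shares either. Mean ranks went from 49.5 to 100 for Col27a1 and from 46.9 to 77.8 for Mmp24. For Timp3 the mean rank was 45.7 in OPCs and 45.0 in OLs, and for Itga9 30.4 and 25.3, so their place among all transcripts was similar in both cell types. Mmp16 went from 37.4 to 7.55, Vcan from 91.3 to 45.6 and Adam12 from 100 to 31.8. In OPC replicate 2 the ranks of Itga9 (24.1) and Mmp16 (40.7) order half-lives within 0.001 h of a value that 25.3% of all transcripts share there. The OPC mean ranks of these 2 members rest in part on this order, which carries no difference in decay.

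One half-life recurs in these data. A curve that lies below the 1 and 2 h values and above the 4 and 6 h values is fitted at 1.957 h whatever the values are, because the absolute deviations then depend on the sampling times alone. Within 0.001 h of it lay 25.3% of all half-lives in OPC replicate 2, against 2.1% in OPC replicate 1, 7.46% in OPC replicate 3 and 0.382% and 1.16% in OLs. Among the 28 members it was the value of Adamts1, Adamts4, Col9a1, Itga9 and Mmp16 in OPC replicate 2, of Adamts1 in OPC replicate 3 and of Col9a1 in OPC replicate 1. For these members the printed 1.96 h states that labelled RNA lay above the curve up to 2 h and below it afterwards, and equal values do not show equal decay.

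Members listed for a single cell type also spanned the range. In OPCs, Adam19 (2.47, 1.52 and 0.688 h), Adamts6 (0.750, 1.31 and 1.3 h) and Itga5 (1.57, 1.96 and 2.47 h) were under the ceiling in all replicates, and Fn1, Lama5, Col4a1, Col5a1, Col5a2 and Adamts12 were at the ceiling in all 3 replicates. Col4a2, the partner chain of Col4a1, was at 1.95, 6 and 4.27 h, from levels near 2 FPKM. In OLs, Adam4 (0.317 and 1.15 h), Adam1a (1.54 and 0.753 h), Adamts5 (2.66 and 1.28 h) and Loxl3 (2.61 and 3.28 h) were under the ceiling in all replicates, and Tnr, Adam11, Itga7, Col4a3, Col11a1, Col11a2, Col16a1 and Col20a1 were at the ceiling in both replicates. Over all transcripts with a half-life in all replicates, 42.3% and 38.8% were at the ceiling in OLs, and Col4a3 and Col16a1 were near the lower limit of 1 FPKM at 0 h in at least 1 OL replicate.

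Among the 86 genes around the members with half-lives, 3 (3.49%) were called longer in OLs in the limma fit and 0 shorter, where 3.39% and 0.148% of all transcripts were, so the count was that of the background. Each of the 3 has the recurring 1.96 h in OPC replicate 2. With the replicate number as a block, 0 of 8112 transcripts were called in either direction, and with replicates centred on their median 0 were called longer, so these 3 calls are lost under both settings. Vcl, vinculin, which links integrins to actin, went from 1.83, 1.96 and 2.25 h to 6 h in both OL replicates (log2 difference 1.58 ± 0.11, adjusted p = 0.0246), Git1 from 2.06, 1.96 and 1.72 h to 6 and 4.84 h (1.5 ± 0.14, adjusted p = 0.040), and Chsy1 from 1.93, 1.96 and 2.20 h to 3.98 and 3.57 h (0.90 ± 0.09, adjusted p = 0.0425). Vcl and Git1 were 2 of 24 integrin adhesion genes with half-lives, and Chsy1 was 1 of 17 chondroitin sulfate and hyaluronan synthesis genes. At 0 h, Chsy1 and Git1 were lower in OLs while their half-lives were longer.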

How the data were processed

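Labelled RNA of 15 OPC and 10 OL libraries was used. The control without biotin was not analysed here, so RNA bound without label was not subtracted. Upstream, the authors removed adapters (fastx_clipper), mapped to GRCm38 (HISAT2 2.1.0) and tabulated FPKM over canonical coding transcripts of GENCODE vM9 with StringTie 1.3.5 and ballgown. For the deposited FPKM, the authors describe a scale set by labelled spike-in RNA. The 0 h values are written to 6 decimals and the later ones to 6 significant digits, and whether the 0 h values carry the scale was not settled. Transcripts under 1 FPKM at 0 h or at 0 at 1 and 2 h were removed by the authors. Half-lives in h, deposited per replicate, are the authors' exponential fits by least absolute deviations with a ceiling of 6 h. Strand use in counting is not given in the sources used here, and reads of overlapping or paralogous genes may be shared. No counts are held, so depth is unknown and no counting interval is given.

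Levels and slopes were tested with limma 3.58.1 (R 4.3.3, moderated with a trend) on log2(FPKM + 1), which understates changes of low genes, and half-lives on the log2 scale without a trend, each over all transcripts with Benjamini-Hochberg adjustment and a threshold of 0.05. The fits were run on simulated data with known changes. These data held no half-life ceiling, no recurring half-life and no spike-in factor shared within a library, so they do not bear on those limits. Replicates are biological per the study, which derived the OLs from some of the OPC replicates without giving their numbers. Exact permutation of 3 against 2 values cannot give p under 0.1 and was not used. The members and lists were chosen with earlier results of these data known. Named were members called, those with the shortest, longest and highest values, those listed for 1 cell type and members with known roles, and of the lists the called genes of largest size, up to 6 a list. Coordinates, coding sequences and 3′ UTRs came from GENCODE vM21 on GRCm38, matched by transcript identifier for all 59 members. Alternatives were another pseudocount, a filter at 5 FPKM, other scalings, refits, no 6 h libraries, leaving out replicates and a replicate block. The 8 panels of the chase plot were chosen after the values were seen.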

Additional observations from a re-analysis of the deposited data

Results flagged for a closer look

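For 3 members the slope over the chase differed between OLs and OPCs by the test of the difference itself in limma. The difference (OL minus OPC, log2 FPKM per h) was 0.29 for Timp3, 0.23 for Col27a1 and 0.20 for Mmp24, each less steep in OLs, where 27.5% of all transcripts were called in this direction. The adjusted p was 0.00172, 0.00728 and 0.0494, and over the alternatives it ranged from 0.000832 to 0.277, from 0.00509 to 0.861 and from 0.0281 to 0.918. With time points set to the 0 h median, the differences shrank to 0.08 for Timp3, 0.02 for Col27a1 and -0.01 for Mmp24, and none was called. Groups of 3 and 2 samples were not searched for samples that stand apart.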

How the results depend on the processing

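Of the 15 members called at 0 h, leaving out a replicate gave 8 to 17, with 8 without OL replicate 1. For half-life (1 member) leaving out an OPC replicate gave 0 to 2, and the count was 0 with replicates centred on their median, refitted or refitted without 6 h. It was 2 in h and 5 (all shorter in OLs) with libraries rescaled to the mean decay curve. Among the 12 members with any half-life below the ceiling in each cell type it was 0, but Col27a1, at the ceiling in both OL replicates, was not among them. For the chase in OPCs (28) a filter at 5 FPKM gave 15 of 26 members tested in place of 44, with no call among these lost. Leaving out the 6 h libraries gave 15 as well, and leaving out a replicate 20 to 27. In OLs (21) the ranges were 15 to 19, and 9 without 6 h. For the slope difference (3) leaving out a replicate gave 1 to 4, a pseudocount of 0.1 gave 6, and the filter 1 of 19 members tested in place of 32. No 6 h libraries gave 1 (Adamts1), and time points set to the 0 h median 15, all steeper in OLs. The last setting gave 40 members in OPCs and 26 in OLs. It also moved the members' median level at 1, 2, 4 and 6 h to 106%, 132%, 348% and 419% of 0 h in OPCs and to 98.8%, 120%, 172% and 201% in OLs. It turned the sign of 20 OPC slopes, to 0.02 for Adamts6, 0.03 for Adamts1, 0.12 for Adamts4, 0.13 for Itga5, 0.14 for Adam19 and Itga9, 0.17 for Col4a3bp, 0.20 for Itga6, 0.21 for Col9a1, Mmp15 and Mmp24, 0.22 for Itgb5, 0.24 for Adam17, 0.27 for Col27a1 and Mmp17, 0.28 for Col4a2, 0.29 for Adam12 and Itgb8, 0.30 for Timp4 and 0.33 for Itga1. In OLs it turned 11, to 0.04 for Vcan, 0.05 for Adam10, Adam12 and Adam1a, 0.06 for Itgb8, 0.07 for Adamts1, Mmp15 and Mmp17, 0.08 for Adam4, 0.10 for Lamc1 and 0.11 for Adamts5, and the slope difference of Mmp24 became -0.01. These turns follow from the scale, which lifts later time points. Without 6 h, the OPC slope of Adam17 became 0.02, and the cause was not tested. With the replicate number as a block, the counts were 17 at 0 h (Itgb5, Lamb2 and Mmp2 gained as lower, Itgav lost), 0 for half-life, 28 and 25 for the chase in OPCs and OLs and 4 for the slope difference. The study gives no numbers for the OPC replicates the OLs came from. Deviations from the cell type mean of same-numbered samples had r = 0.0589 and 0.0102 for levels and -0.00162 and -0.105 for half-lives. The highest of the other pairs was 0.0897 for levels (OPC 3, OL 2) and 0.105 for half-lives (OPC 2, OL 1). With 2 OL replicates, r with OL 2 is r with OL 1 with its sign turned, so these pairs are not separate evidence. The pairing stays unknown and was not assumed. The 2 OL replicates, low levels near 1 FPKM and the ceiling of 6 h limit what could be called.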
